A study of Mus musculus with 12 samples.

Results

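The genes of the mitochondrial respiratory chain and ATP synthase were followed in mouse CD8 T cells that carried a Batf3 vector or a control vector, with and without stimulation through the T cell receptor. The members were all protein-coding genes whose symbols begin with Nduf, Uqcr, Cox4 to Cox8 or Atp5, the 4 genes Sdha to Sdhd, and all protein-coding genes of the mitochondrial genome. The rule found 108 genes among the 55335 genes of the count table, 95 of them nuclear and 13 mitochondrially encoded. It used names and positions and no measured value. Of these, 89 nuclear and all 13 mitochondrially encoded genes had enough counts to be tested.

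The cells were OT-I CD8 T cells from the spleen of C57BL/6 mice, whose T cell receptor is a transgene that recognizes a piece of ovalbumin. They had received a retroviral vector, were sorted for transduction and were cultured for 6 h in 4 groups. These were Batf3 vector with stimulation, control (empty) vector with stimulation, Batf3 vector without stimulation and control vector without stimulation. Stimulation was plate-bound anti-CD3e with anti-CD28 at 1 µg/ml each, while the non-stimulated cultures held IL-15 at 100 ng/ml. The labels name IL-15 for the non-stimulated cultures alone. Every change with stimulation below therefore compares anti-CD3e and anti-CD28 with IL-15, and the effect of adding the antibodies cannot be told apart from that of lacking IL-15. Batf3, an AP-1 family transcription factor, was thus supplied by a retroviral vector on top of the cells' own gene. Each group had 3 libraries, which the labels call technical replicates. Every SD, SE and p-value therefore covers the spread between these libraries and not between mice or transductions.

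The respiratory chain passes electrons from NADH through complex I, and from succinate through complex II, to coenzyme Q, complex III, cytochrome c and complex IV. Complexes I, III and IV pump protons across the inner mitochondrial membrane, and ATP synthase, complex V, uses the gradient to make ATP. Complex II is built from nuclear genes alone, whereas the other complexes combine nuclear subunits, imported from the cytosol, with subunits translated inside the mitochondrion. In T cells, activation is known to be followed by growth of the mitochondrial compartment along with a large increase in glycolysis.

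The starts of the nuclear genes that moved furthest with stimulation are shown first, since stimulation gave the largest changes. Each sequence holds the 250 bases before the gene's start as RefSeq annotates it on GRCm38.p6, written on the gene's own strand. The genes are the 3 of the largest falls and 3 of the largest rises in control-vector cells among genes at 10 CPM (reads of a gene, scaled so that libraries can be compared) or more. Ndufaf6 and Uqcrq rose further than Ndufa12 and are named only. Capitals mark matches, on either strand, to the NRF1 core (CGCATGCG), the ETS core CCGGAAG, the E-box CACGTG, the CRE (TGACGTCA) and AP-1 (TGANTCA), none of which overlap here. Ndufb10 lies at chr17:24724424-24724673, minus strand, and Ndufv3 at chr17:31519865-31520114, plus strand. Ndufa3 lies at chr7:3617123-3617372, plus strand. Ndufaf4 lies at chr4:24897833-24898082, plus strand, and Atp5g1 at chr11:96075632-96075881, minus strand. Ndufa12 lies at chr10:94198785-94199034, plus strand. The first 3 below fell with stimulation and the last 3 rose.
Ndufb10: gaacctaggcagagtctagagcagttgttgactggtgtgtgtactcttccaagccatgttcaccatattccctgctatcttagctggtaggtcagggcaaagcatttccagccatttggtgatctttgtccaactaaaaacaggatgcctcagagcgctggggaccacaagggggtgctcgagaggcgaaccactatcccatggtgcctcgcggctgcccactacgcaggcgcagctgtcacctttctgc
Ndufv3: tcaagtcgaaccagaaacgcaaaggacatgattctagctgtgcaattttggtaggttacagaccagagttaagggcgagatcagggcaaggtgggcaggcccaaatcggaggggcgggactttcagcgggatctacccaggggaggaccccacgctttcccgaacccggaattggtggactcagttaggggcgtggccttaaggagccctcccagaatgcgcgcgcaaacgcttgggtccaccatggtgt
Ndufa3: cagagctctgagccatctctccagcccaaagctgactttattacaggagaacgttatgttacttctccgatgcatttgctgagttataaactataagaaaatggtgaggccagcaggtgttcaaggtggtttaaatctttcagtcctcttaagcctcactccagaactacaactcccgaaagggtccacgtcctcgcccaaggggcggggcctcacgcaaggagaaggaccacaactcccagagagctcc
Ndufaf4: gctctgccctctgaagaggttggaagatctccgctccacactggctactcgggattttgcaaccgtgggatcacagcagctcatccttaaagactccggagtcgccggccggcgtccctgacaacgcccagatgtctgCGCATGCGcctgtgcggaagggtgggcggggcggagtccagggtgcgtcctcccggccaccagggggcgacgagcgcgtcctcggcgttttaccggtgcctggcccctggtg
Atp5g1: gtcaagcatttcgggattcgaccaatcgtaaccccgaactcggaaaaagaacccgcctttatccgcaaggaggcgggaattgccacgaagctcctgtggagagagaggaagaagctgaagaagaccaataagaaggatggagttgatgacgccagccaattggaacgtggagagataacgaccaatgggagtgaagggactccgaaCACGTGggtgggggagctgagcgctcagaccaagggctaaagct
Ndufa12: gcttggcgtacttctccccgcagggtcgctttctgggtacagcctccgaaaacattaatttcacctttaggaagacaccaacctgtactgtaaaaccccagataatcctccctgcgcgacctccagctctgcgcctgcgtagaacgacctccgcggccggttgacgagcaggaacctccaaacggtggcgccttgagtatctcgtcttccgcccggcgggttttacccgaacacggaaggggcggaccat

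The Ndufaf4 window holds 1 match to the NRF1 core and the Atp5g1 window 1 E-box. The other 4 windows hold none of the 5 motifs, which says only that these letters are not there. RefSeq windows were found for 78 of the 95 nuclear genes, and the 75 of these that were tested have 80 windows. Only the 250 bases before the start were searched. The NRF1 core stood in 8 of these 80 windows (10%) and in 1.55% of all 32851 windows. The ETS core stood in 17.5% of the members' windows and 6.91% of all, and the CRE in 5.0% and 1.55%. The shares for the E-box were 8.75% and 6.02%, and for AP-1, the family to which Batf3 belongs, 7.5% and 6.75%. The motifs were chosen with results of these data known, and the NRF1 motif was shortened to its core after a longer form had been counted. These matches describe the letters and are not evidence of binding.

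The mitochondrial genome packs its genes so closely that some share bases, and stretches of it have been copied into chromosome 1. The first sequence below, chrM:7917-7969, shows in capitals the 43 bases that belong to both mt-Atp8 and mt-Atp6. The next pair shows the first 23 bases of mt-Nd3, chrM:9459-9481, and the matching stretch of its copy Gm28438, chr1:24613097-24613119 on the minus strand. The capital marks the 1 base that differs, T3C, with positions counted from 1 at the left. All 3 come from the GENCODE M21 transcripts on GRCm38.
mt-Atp8 and mt-Atp6 overlap: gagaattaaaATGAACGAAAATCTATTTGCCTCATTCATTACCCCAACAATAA
mt-Nd3: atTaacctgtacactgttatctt
Gm28438: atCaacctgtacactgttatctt

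Nearly identical copies on chromosome 1 matched 7 of the 13 mitochondrially encoded genes. Gm28438 held between 1 and 1.0022 times the count of mt-Nd3 in the 12 libraries, so both genes carried nearly the same count. The same held for Gm10222 beside mt-Nd4l (1 to 1.0043), Gm28661 beside mt-Co2 (1.0002 to 1.0011) and Gm28437 beside mt-Co3 (1.001 to 1.0022). Gm10925 held 1.129 to 1.203 times the count of mt-Atp6, Gm29216 0.424 to 0.446 times that of mt-Co1, and Gm28439 0.407 to 0.531 times that of mt-Nd4. How reads that align to several places were counted is not given in the sources used here, and how the copies' counts bear on the changes below was not tested.

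Totals per library were 14211564 to 14468231 counts, so 3 counts came to 0.191 to 0.229 CPM. Batf3 stood at 414 to 435 CPM in Batf3 stimulated, 17.7 to 19.1 CPM in control stimulated, 468 to 475 CPM in Batf3 non-stimulated and 5.84 to 7.44 CPM in control non-stimulated libraries. These reads can come from the vector or from the gene. The 7 T cell and CD8 markers (Cd8a and Cd3e among them) summed to 1594 to 2706 CPM and Cd4 to at most 0.668 CPM. Myeloid markers summed to 8.83 to 11.7 CPM in Batf3 stimulated and 4.80 to 7.32 CPM in control stimulated libraries, with Lyz2 at 0, and to 5.16 to 5.58 CPM in Batf3 non-stimulated and 2.19 to 2.45 CPM in control non-stimulated libraries. NK cell markers, of which Ncr1 and Klra8 had no count, summed to 0.513 to 0.961 CPM in Batf3 non-stimulated and 2.45 to 3.92 CPM in control non-stimulated libraries, and overlapped in stimulated cells. The dendritic cell sums overlapped between the vectors, with Siglech at 0. In stimulated cells Xcr1 had 6.90 to 7.52 CPM with the Batf3 vector and 3.58 to 4.88 CPM with the control vector, and Zbtb46 had 10.3 to 11.5 CPM with the Batf3 vector and 15.1 to 17.5 CPM with the control vector. The 5 erythroid and platelet markers reached at most 1.99 CPM, in Batf3 non-stimulated libraries, and the 4 B cell markers at most 6.15 CPM. The part of these markers in the results was not tested.

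The libraries of Batf3 stimulated cells differed most in the mitochondrially encoded genes. Leaving out mt-Atp8, the median log2 deviation from the group mean was 0.11 in replicate 1, 0.06 in replicate 2 and -0.17 in replicate 3, against -0.05 to 0.07 in the libraries of the other groups. All 12 of these genes lay above the group mean in replicates 1 and 2 and below it in replicate 3. They thus moved together from library to library, so counts of their signs below are not counts of independent results. Results on these genes are also given without replicate 3. That replicate also stood apart over all genes compared. Its chi-square per degree of freedom was 3.076 against replicate 1 (15089 genes) and 2.566 against replicate 2 (15099 genes). All other pairs of libraries within a group had 1.445 to 2.133.

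All levels are CPM on library sizes scaled by trimmed mean of M values (TMM), and changes are log2 ratios with their standard errors. A gene was called changed at an adjusted p under 0.05 by the quasi-likelihood test of edgeR, adjusted after Benjamini and Hochberg over 15702 genes, which gives every adjusted p below. In such bulk samples, a change in RNA per cell cannot be told apart from a change in which cells are present.

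The nuclear genes summed to 6398, 6409 and 6529 CPM in Batf3 stimulated and 6718, 6744 and 6859 CPM in control stimulated libraries. Their sums were 5698, 5713 and 5754 CPM in Batf3 non-stimulated and 6359, 6295 and 6291 CPM in control non-stimulated libraries. On this scale every Batf3 library lay below every control library of the same culture, and every stimulated library above every non-stimulated library with the same vector. The mean with the Batf3 vector was 0.952 times that with the control vector in stimulated cells and 0.906 times in non-stimulated cells. With the control vector, Atp5b of ATP synthase, whose levels are given below, made up nearly all of the rise with stimulation. With the Batf3 vector its part was smaller. Control-vector means of the nuclear genes rose for complex V (2637 to 3166 CPM), complex III (589 to 706 CPM) and complex I assembly factors (102 to 184 CPM). They fell for complex I subunits (1523 to 1389 CPM), complex II (410 to 325 CPM) and complex IV (1054 to 1004 CPM). The order of the nuclear sums by stimulation turned when they were taken as a share of all counts, with no TMM scaling. The shares were 0.604% to 0.620% in Batf3 stimulated and 0.627% to 0.632% in Batf3 non-stimulated libraries, and 0.615% to 0.628% in control stimulated and 0.656% to 0.663% in control non-stimulated libraries. On that scale the vectors kept their order in the means, 0.982 times in stimulated and 0.954 times in non-stimulated cells (Batf3 over control), but Batf3 stimulated replicate 3 lay above control stimulated replicate 1.

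The 13 mitochondrially encoded genes summed to 20042, 19298 and 16620 CPM in Batf3 stimulated and 20571, 21247 and 20747 CPM in control stimulated libraries. They summed to 19286, 20309.5 and 19335 CPM in Batf3 non-stimulated and 17486, 17524 and 18708 CPM in control non-stimulated libraries. The order of the vectors was thus opposite in the cultures, with all Batf3 libraries below the control ones after stimulation and all above them without it. The ratio of means, Batf3 over control, was 0.894 in stimulated cells (0.943 without Batf3 stimulated replicate 3) and 1.10 in non-stimulated cells. As shares of all counts these ratios were 0.923 and 1.16, and Batf3 stimulated replicate 1 (1.89%) then lay just above control stimulated replicate 1 (1.88%), so that the stimulated groups overlapped. On a scale that divides by transcript length (TPM), mt-Co1 was the highest of the 13, with means of 6914, 7154, 9565 and 7732 TPM in Batf3 stimulated, control stimulated, Batf3 non-stimulated and control non-stimulated cells. mt-Atp8 was the lowest, with means of 156 to 281 TPM. The 13 genes held 1.58% to 2.23% of all counts.

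**Figure D1:**
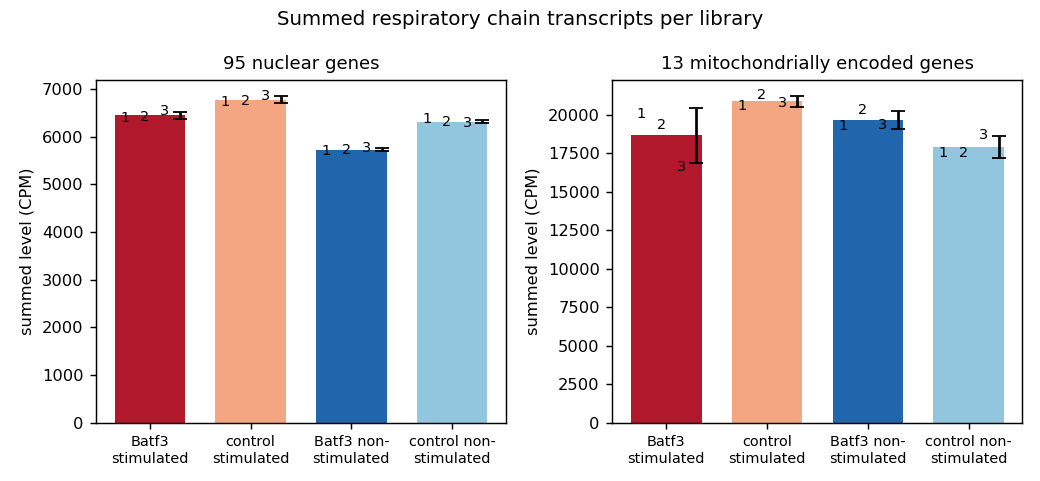
Summed level of the nuclear and the mitochondrially encoded genes in CPM, by group. Bars show the mean, error bars the SD (n = 3) and the digits the replicates. On this TMM scale nuclear sums were lower with the Batf3 vector in both cultures, with means of 6445 and 6774 CPM after stimulation and 5722 and 6315 CPM without it, and Batf3 stimulated replicate 3 has the lowest mitochondrial sum.

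Stimulation split the nuclear genes. With the control vector, 29 of 89 rose and 33 fell, or 32.6% and 37.1%, against 39.6% and 40.7% of all tested genes, and their median log2 change was -0.02 (all genes -0.01). With the Batf3 vector, 38 rose and 34 fell, or 42.7% and 38.2%, against 41.2% and 41.4% of all genes, with a median of 0.04. These shares lie near the background. Taken by overlap, the stimulated libraries all lay above the non-stimulated ones for 35 nuclear genes and all below for 35 with the Batf3 vector, against 41.2% and 41.4% of all genes, and for 29 and 35 with the control vector, against 40.1% and 41.1%. Scaling by library sizes alone lowers the all-gene medians to -0.19 and -0.20 and gives 18 rises and 51 falls with the control vector and 24 and 49 with the Batf3 vector. Of all 15702 tested genes, 5086 then rose and 7443 fell with the control vector, and 5254 rose and 7525 fell with the Batf3 vector. The calls with the 2 vectors come from different libraries. The 27 genes that rose in both were 71.1% of those with the Batf3 vector and 93.1% of those with the control vector, and the 32 that fell in both were 94.1% and 97%. This overlap was not computed over all genes, so it cannot be called particular to these members.

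Complex I subunits moved in both directions. Of 37, 9 rose and 19 fell with the control vector, or 24.3% and 51.4%, against 39.6% and 40.7% of all genes. With the Batf3 vector 12 rose and 18 fell, or 32.4% and 48.6%, against 41.2% and 41.4%. Ndufb10, an accessory subunit of the membrane arm, stood at 20.3, 19.1 and 17.2 CPM in Batf3 stimulated and 42.8, 43.5 and 47.2 CPM in Batf3 non-stimulated libraries. It had 17.4, 15.9 and 18.05 CPM in control stimulated and 48.8, 46.6 and 48.0 CPM in control non-stimulated libraries. The stimulated and non-stimulated libraries were far apart with either vector, with a log2 change of -1.24 ± 0.07 (SE, adjusted p = 6.84e-25) with the Batf3 vector and -1.48 ± 0.07 (adjusted p = 2.55e-28) with the control vector.

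Ndufv3, an accessory subunit of the module that takes electrons from NADH, stood at 11.6, 15.3 and 14.7 CPM in control stimulated and 37.5, 38.9 and 38.9 CPM in control non-stimulated libraries. It fell by 1.47 ± 0.08 on the log2 scale (adjusted p = 3.43e-25), and by 1.45 ± 0.08 with the Batf3 vector (adjusted p = 9.44e-25). Ndufa3, a small membrane-arm subunit, had 13.2, 13.9 and 15.99 CPM in control stimulated against 32.0, 32.3 and 26.2 CPM in control non-stimulated libraries, without overlap. Its log2 change was -1.07 ± 0.09 with either vector (adjusted p = 3.15e-16 with the Batf3 vector and 4.49e-16 with the control vector). Ndufb11, also of the membrane arm, fell by 1.10 ± 0.06 with the Batf3 vector and by 0.98 ± 0.06 with the control vector. The core subunit Ndufv1, which binds NADH, fell by 0.32 ± 0.05 (Batf3 vector) and by 0.33 ± 0.05 (control vector).

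Other complex I subunits rose. Ndufa12, an accessory subunit, stood at 67.2, 61.1 and 67.6 CPM in control stimulated and 36.5, 35.2 and 36.2 CPM in control non-stimulated libraries, a log2 change of 0.86 ± 0.06 (adjusted p = 1.23e-20). With the Batf3 vector its change was 0.94 ± 0.06 (adjusted p = 6.21e-22). The core iron-sulfur subunit Ndufs1 rose with the Batf3 vector (log2 0.20 ± 0.05, adjusted p = 7.53e-05; -0.01 with library sizes alone), and its change with the control vector, 0.07 ± 0.05, did not pass (adjusted p = 0.176).

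The assembly factors of complex I, proteins that help build the complex and are not part of it when finished, gave the largest rise of any nuclear gene. Ndufaf4, which acts on an early assembly intermediate, stood at 85.6, 79.7 and 71.6 CPM in Batf3 stimulated and 21.8, 19.995 and 18.7 CPM in Batf3 non-stimulated libraries. It had 88.2, 93.1 and 90.5 CPM in control stimulated and 25.3, 22.3 and 27.8 CPM in control non-stimulated libraries. All stimulated libraries lay above all non-stimulated ones, and the change was 3.91-fold with the Batf3 vector (log2 1.97 ± 0.07, adjusted p = 7.32e-31) and 3.60-fold with the control vector (1.85 ± 0.06, adjusted p = 1.61e-30). Of the 8 assembly factors, 6 rose and 1 fell with the Batf3 vector (41.2% and 41.4% of all genes) and 5 rose and 1 fell with the control vector (39.6% and 40.7% of all genes). Their summed level with stimulation was 1.96 times that without it with the Batf3 vector (169 and 86.3 CPM) and 1.80 times with the control vector (184 and 102 CPM). Ndufaf4 alone made up a large part of this rise.

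Ndufaf6 rose as well, by 1.33 ± 0.13 on the log2 scale with the Batf3 vector and 1.16 ± 0.13 with the control vector (adjusted p = 2.07e-14 with the Batf3 and 4.54e-12 with the control vector), at 10.4 to 12.2 CPM in stimulated and 4.02 to 5.57 CPM in non-stimulated libraries. Ndufaf1, another assembly factor, rose by 0.45 ± 0.08 (Batf3 vector) and by 0.20 ± 0.09 (control vector). Its control-vector call was lost without control non-stimulated replicate 2 or control stimulated replicate 1 or 2, with an adjusted p of up to 0.2. Ndufaf3, which works in a complex with Ndufaf4, went the other way. It fell by 0.78 ± 0.14 with the Batf3 vector and by 0.69 ± 0.13 with the control vector (adjusted p = 6.05e-07 with the Batf3 and 2.17e-06 with the control vector), at 5.19 and 6.40 CPM on average in stimulated cells.

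**Figure D2:**
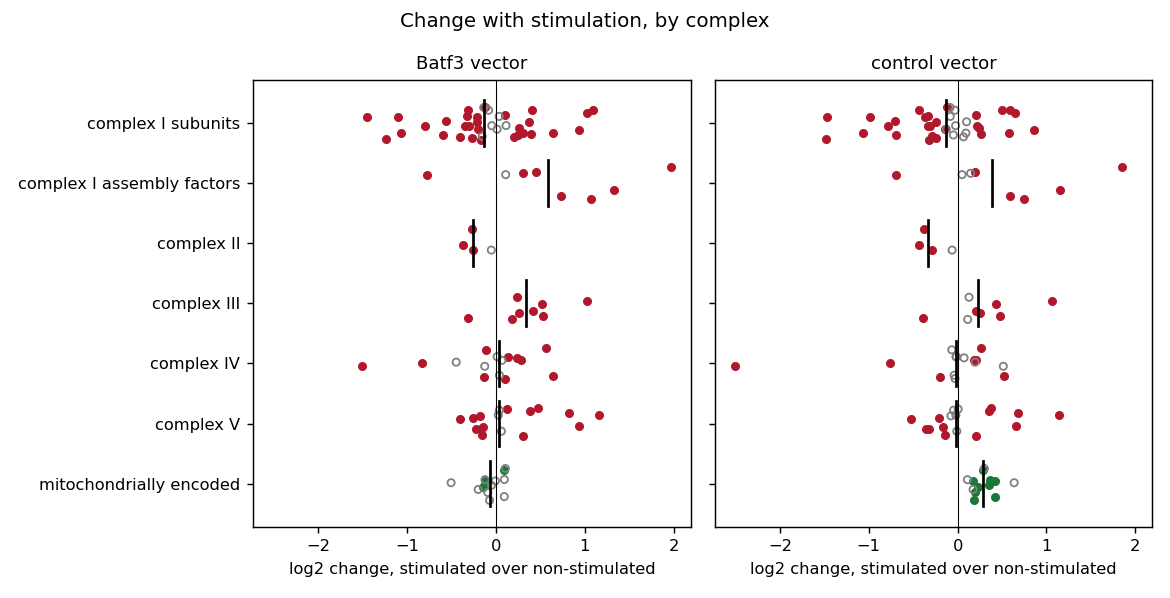
Log2 change with stimulation of each tested gene, by complex, with the Batf3 vector and the control vector. Filled points passed the test (red nuclear, green mitochondrially encoded), open points did not, and black bars are medians. Assembly factors, with medians of 0.59 and 0.39, lie mostly to the right and complex II to the left, and the mitochondrially encoded genes lie right of 0 in 4 of 13 cases with the Batf3 vector and in 13 of 13 with the control vector.

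Complex II, which oxidizes succinate and is part of both the chain and the TCA cycle, was lower after stimulation. Its flavoprotein subunit Sdha stood at 112, 118 and 117 CPM in Batf3 stimulated and 146, 148 and 155 CPM in Batf3 non-stimulated libraries. It had 121, 122 and 118 CPM in control stimulated and 165, 155 and 168 CPM in control non-stimulated libraries. The stimulated libraries lay below the others throughout, with log2 changes of -0.37 ± 0.04 (Batf3 vector, adjusted p = 1.12e-13) and -0.44 ± 0.04 (control vector, adjusted p = 2.06e-16). The iron-sulfur subunit Sdhb fell by 0.27 ± 0.04 (Batf3 vector) and by 0.38 ± 0.04 (control vector), and the membrane anchor Sdhd by 0.25 ± 0.04 (Batf3 vector) and by 0.28 ± 0.04 (control vector). The other anchor, Sdhc, overlapped between the groups (-0.05 ± 0.08 with the Batf3 vector and -0.06 ± 0.08 with the control vector, adjusted p = 0.527 with the Batf3 and 0.458 with the control vector).

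Of the 8 nuclear genes of complex III, 7 rose and 1 fell with the Batf3 vector, against 41.2% and 41.4% of all genes, and 5 rose and 1 fell with the control vector, against 39.6% and 40.7%. Uqcrq, a small subunit close to cytochrome b, stood at 70.9, 77.2 and 77.7 CPM in Batf3 stimulated and 35.8, 38.5 and 36.8 CPM in Batf3 non-stimulated libraries. It had 87.0, 87.8 and 97.4 CPM in control stimulated and 43.4, 42.8 and 44.3 CPM in control non-stimulated libraries. The rise was 2.03-fold with the Batf3 vector (log2 1.02 ± 0.05, adjusted p = 2.62e-26) and 2.09-fold with the control vector (1.06 ± 0.05, adjusted p = 6.6e-28), without overlap. The Rieske iron-sulfur protein Uqcrfs1 rose by 0.52 ± 0.04 (Batf3 vector) and by 0.43 ± 0.04 (control vector), and the core proteins Uqcrc1 by 0.26 ± 0.04 (Batf3 vector) and by 0.25 ± 0.04 (control vector) and Uqcrc2 by 0.42 ± 0.04 (Batf3 vector) and by 0.21 ± 0.04 (control vector). The gene that fell was Uqcrh, the hinge protein, by 0.32 ± 0.04 (Batf3 vector) and by 0.39 ± 0.04 (control vector).

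The 15 tested nuclear genes of complex IV were divided, with 6 rises and 4 falls with the Batf3 vector and 4 and 3 with the control vector, none of these shares above that of all genes. Cox7a2l, which joins complexes III and IV into supercomplexes and has a known short allele in C57BL/6 mice, stood at 97.5, 94.96 and 88.7 CPM in Batf3 stimulated and 168, 169 and 163 CPM in Batf3 non-stimulated libraries. With the control vector it stood at 96.2, 97.8 and 98.2 CPM with stimulation and 173, 163 and 159 CPM without. It fell by 0.83 ± 0.04 on the log2 scale with the Batf3 vector (adjusted p = 1.04e-28) and by 0.76 ± 0.04 with the control vector (adjusted p = 1.01e-26), without overlap.

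Ndufa4, once assigned to complex I and now known as a subunit of complex IV, rose by 0.65 ± 0.08 (Batf3 vector) and by 0.52 ± 0.08 (control vector) (adjusted p = 4.6e-11 with the Batf3 and 4.21e-08 with the control vector). Cox7b rose by 0.56 ± 0.04 (Batf3 vector) and by 0.26 ± 0.04 (control vector), and Cox6a1 fell by 0.14 ± 0.05 (Batf3 vector) and by 0.20 ± 0.05 (control vector). Cox4i1 and Cox5b moved little on the TMM scale. Cox4i1 had 176, 172 and 181 CPM in Batf3 stimulated against 176, 171 and 168 CPM in Batf3 non-stimulated libraries, and 189.7, 189 and 182 CPM in control stimulated against 191, 189 and 196 CPM in control non-stimulated libraries. These overlapped, with changes of 0.04 ± 0.03 and -0.04 ± 0.03 (adjusted p = 0.271 with the Batf3 and 0.278 with the control vector), and Cox5b overlapped too (0.01 ± 0.04 with the Batf3 vector and -0.01 ± 0.04 with the control vector).

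Among the tissue isoforms, Cox6b2, a testis form, was called lower with stimulation. Its levels were 0.372, 0.519 and 0.221 CPM in Batf3 stimulated and 1.08, 1.22 and 0.897 CPM in Batf3 non-stimulated libraries, and at or below 0.228 CPM in control stimulated and 0.930 CPM in control non-stimulated libraries. In stimulated cells these are a handful of counts, near the 0.191 to 0.229 CPM that 3 counts make. The muscle forms Cox6a2 and Cox7a1 stayed under 1.5 CPM in every library. The 6 untested genes were Cox4i2 (at most 0.381 CPM), Cox7b2 (0.0663 CPM in 1 library), Ndufa4l2 (at most 0.372 CPM), Cox8b, Cox8c and a second identifier named Atp5o, the last 3 without a count.

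In ATP synthase the α and β subunits of the catalytic head rose and parts of the stalks fell. Atp5b, the catalytic β subunit, stood at 1074, 1055 and 1099 CPM in Batf3 stimulated and 609, 607 and 602 CPM in Batf3 non-stimulated libraries. It had 1164, 1140.5 and 1164 CPM in control stimulated and 727, 721 and 710.2 CPM in control non-stimulated libraries. All stimulated libraries lay above all non-stimulated ones, 1.77-fold on average with the Batf3 vector (log2 0.83 ± 0.02, adjusted p = 8.71e-40) and 1.61-fold with the control vector (0.69 ± 0.02, adjusted p = 1.85e-35). The α subunit Atp5a1 rose by 0.30 ± 0.03 (Batf3 vector) and by 0.20 ± 0.02 (control vector). The γ subunit Atp5c1, part of the rotor, fell by 0.14 ± 0.04 (Batf3 vector) and by 0.17 ± 0.04 (control vector). Of the peripheral stalk, Atp5h fell by 0.40 ± 0.04 (Batf3 vector) and by 0.53 ± 0.04 (control vector) and Atp5f1 by 0.17 ± 0.04 (Batf3 vector) and by 0.32 ± 0.04 (control vector). The e subunit Atp5k overlapped between stimulated and non-stimulated cells with either vector.

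The genes Atp5g1, Atp5g2 and Atp5g3 encode the same mature c subunit, the ring that turns in the membrane, with different import sequences. Atp5g1 stood at 115, 111 and 118 CPM in Batf3 stimulated and 51.1, 51.3 and 51.4 CPM in Batf3 non-stimulated libraries. It had 129, 138 and 140.1 CPM in control stimulated and 64.0, 62.0 and 58.9 CPM in control non-stimulated libraries. It thus rose 2.23-fold with the Batf3 vector (log2 1.16 ± 0.04, adjusted p = 4.98e-33) and 2.20-fold with the control vector (1.14 ± 0.04, adjusted p = 2.06e-33). Atp5g3 rose by 0.38 ± 0.04 (Batf3 vector) and by 0.35 ± 0.04 (control vector). Atp5g2 fell by 0.18 ± 0.04 with the Batf3 vector (adjusted p = 2.92e-05), and its change with the control vector was -0.08 ± 0.04 (adjusted p = 0.063). It shares part of its sequence with other annotated genes, so its counts are less certain.

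**Figure D3:**
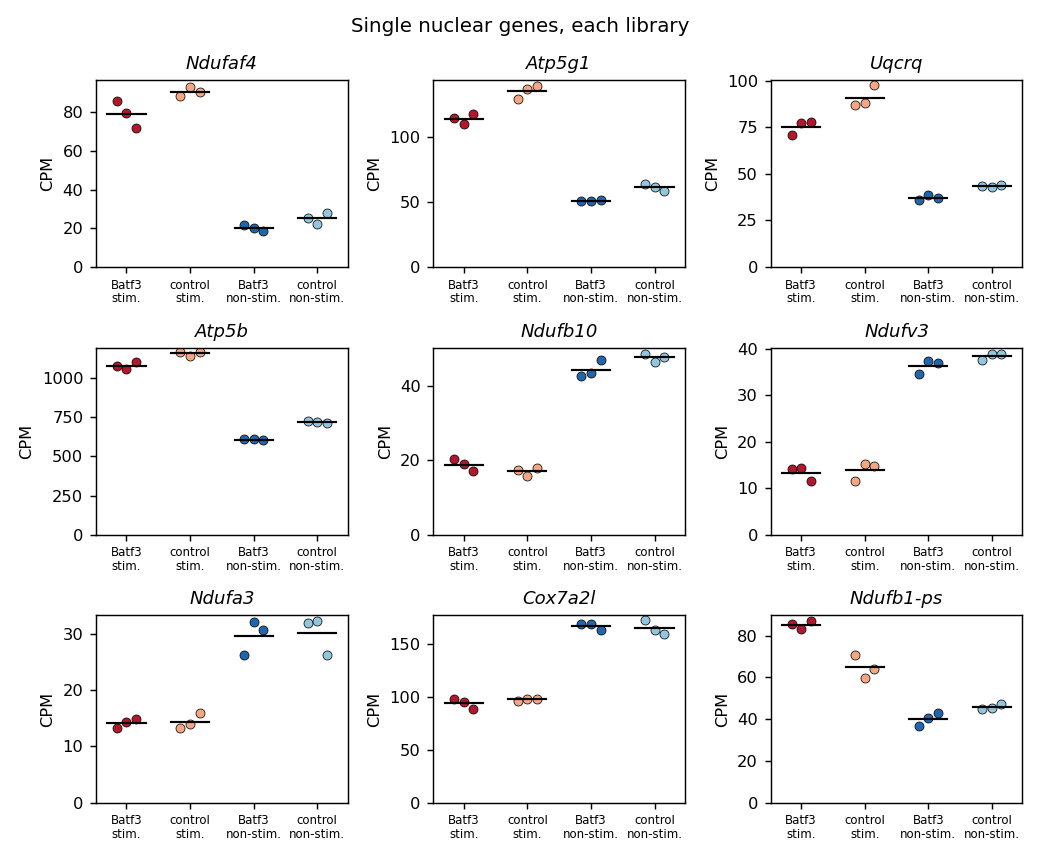
CPM in each library of 9 nuclear genes, by group, with bars at the group mean. Ndufaf4, Atp5g1, Uqcrq and Atp5b are higher in all stimulated libraries, Ndufb10, Ndufv3, Ndufa3 and Cox7a2l lower, and Ndufb1-ps is highest in Batf3 stimulated cells, at 83.0 to 87.3 CPM.

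The mitochondrially encoded genes were higher after stimulation in the control-vector cells. There 9 of 13 rose, or 69.2%, against 39.6% of all genes. In all 13 every stimulated library lay above every non-stimulated one, against 40.1% of all genes. The median log2 change was 0.28. With the Batf3 vector 1 rose and 2 fell, or 7.69% and 15.4%, against 41.2% and 41.4% of all genes, and the median was -0.07. With library sizes alone, 2 of the 13 rose with the control vector, against 5086 of all 15702 tested genes. On that scale 9 of 13 log2 changes with the control vector were above 0 and their median was 0.10. With the Batf3 vector 9 fell, against 7525 of all tested genes. As a share of all counts, the sum of the 13 genes overlapped between control stimulated (1.884% to 1.952%) and control non-stimulated libraries (1.823% to 1.951%).

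Without Batf3 stimulated replicate 3 the counts were 2 rises and 3 falls with the Batf3 vector, and 12 rises with the control vector. The falls with the Batf3 vector numbered 5 without Batf3 stimulated replicate 1, 1 without Batf3 stimulated replicate 2 or Batf3 non-stimulated replicate 1 or 3, and 0 without Batf3 non-stimulated replicate 2. The rises there numbered 0 without Batf3 stimulated replicate 1.

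mt-Cytb, the cytochrome b of complex III, stood at 2149, 2126 and 1938 CPM in Batf3 stimulated and 1928, 1948 and 1955 CPM in Batf3 non-stimulated libraries. It had 2004, 2012 and 2001 CPM in control stimulated and 1619.7, 1619 and 1707 CPM in control non-stimulated libraries. The control groups were far apart (log2 0.28 ± 0.03, adjusted p = 4.15e-12), while the Batf3 groups overlapped, with 1 stimulated library inside the non-stimulated range (0.09 ± 0.03, adjusted p = 0.00206; -0.12 with library sizes alone). That call was lost without Batf3 stimulated replicate 1 (adjusted p = 0.27).

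mt-Nd4l, a membrane-arm subunit of complex I, stood at 109, 114 and 96.3 CPM in Batf3 stimulated and 100.4, 113 and 107 CPM in Batf3 non-stimulated libraries. It had 116, 117 and 127 CPM in control stimulated and 85.3, 91.4 and 93.3 CPM in control non-stimulated libraries. It rose with the control vector (0.42 ± 0.05, adjusted p = 3.9e-08), and overlapped with the Batf3 vector (-0.01 ± 0.05, adjusted p = 0.922). The other subunits of complex I that rose with the control vector were mt-Nd1 (0.37 ± 0.08), mt-Nd2 (0.42 ± 0.11), mt-Nd4 (0.35 ± 0.10), mt-Nd5 (0.23 ± 0.05) and mt-Nd6 (0.20 ± 0.07), with adjusted p from 0.00257 for mt-Nd1 to 0.0323 for mt-Nd6. The mt-Nd6 call was lost without control non-stimulated replicate 1 or 2 or control stimulated replicate 1 or 2 (adjusted p up to 0.0985). mt-Nd3 reached 0.30 ± 0.12 (adjusted p = 0.0505).

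mt-Co1, the catalytic subunit of complex IV, stood at 6321, 6333 and 5547 CPM in Batf3 stimulated and 6641, 6709 and 6527 CPM in Batf3 non-stimulated libraries. It had 6629, 6777 and 6737 CPM in control stimulated and 5868, 5891 and 6111 CPM in control non-stimulated libraries. So it was lower in all stimulated libraries with the Batf3 vector (-0.13 ± 0.05, adjusted p = 0.0287) and higher in all with the control vector (0.17 ± 0.05, adjusted p = 0.00676; -0.01 with library sizes alone). mt-Co2 rose with the control vector by 0.18 ± 0.07 (adjusted p = 0.0328; -0.0019 with library sizes alone). The mt-Co2 call was lost without control non-stimulated replicate 1 or 2 or control stimulated replicate 2 or 3 (adjusted p up to 0.0946), and the fall of mt-Co1 with the Batf3 vector without Batf3 non-stimulated replicate 1 or 2 (up to 0.0789). mt-Co3 (0.11 ± 0.07) and mt-Atp6 (0.17 ± 0.11) did not pass.

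mt-Atp8, the smallest of the 13, had 31.4, 15.8 and 7.15 CPM in Batf3 stimulated and 24.2, 28.7 and 36.6 CPM in control stimulated libraries. It had 12.8, 42.7 and 21.6 CPM in Batf3 non-stimulated and 16.3, 17.2 and 24.1 CPM in control non-stimulated libraries. The libraries of the Batf3 groups differ several-fold among themselves, and no change passed the test. Of its transcript, the 43 bases shown above also belong to mt-Atp6.

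In non-stimulated cells many nuclear genes were slightly lower with the Batf3 vector. Of 89, 40 were lower, or 44.9%, against 23.0% of all tested genes, and 81 of 89 log2 changes were below 0, with a median of -0.12 (all genes -0.02). The 3 Batf3 libraries lay below the 3 control libraries for 48 nuclear genes, against 27.1% of all genes. No nuclear gene was called higher by edgeR's quasi-likelihood test, with 1 at an unadjusted p under 0.05 and 0 by DESeq2. With library sizes alone, 20 were lower and 3 higher, against 2397 lower and 3604 higher of all 15702 tested genes. Of the 40 calls, 16 were lost in at least 1 of the 12 fits without 1 library and 11 in more than 6. The genes called lower were 16 complex I subunits, 2 assembly factors, 2 of complex II, 6 of complex III, 4 of complex IV and 10 of complex V.

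Ndufs8, a core iron-sulfur subunit of complex I, stood at 33.5, 38.1 and 35.4 CPM in Batf3 non-stimulated and 45.8, 43.3 and 44.5 CPM in control non-stimulated libraries. It did not overlap and fell by 0.32 ± 0.06 on the log2 scale (adjusted p = 7.71e-06). Atp5d, the δ subunit of the rotor, had 128, 117 and 118 CPM with the Batf3 vector and 150.4, 148 and 146 CPM with the control vector, again without overlap (-0.29 ± 0.04, adjusted p = 3.22e-09). Atp5b fell by 0.25 ± 0.02 (adjusted p = 2.6e-13) and Atp5a1 by 0.15 ± 0.02 (adjusted p = 7.87e-07), each with all Batf3 libraries below all control libraries. The c subunit genes fell too, Atp5g1 by 0.27 ± 0.05, Atp5g2 by 0.17 ± 0.04 and Atp5g3 by 0.24 ± 0.04.

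In the other complexes the largest falls were those of Ndufaf7 (0.33 ± 0.09), an assembly factor of complex I, Sdhb (0.18 ± 0.04), Uqcrb (0.24 ± 0.06), a small subunit of complex III, and Cox7b (0.19 ± 0.05). Their adjusted p were 0.00154 for Ndufaf7, 0.000257 for Sdhb, 0.00192 for Uqcrb and 0.000363 for Cox7b. Cox4i1 fell by 0.16 ± 0.03 and Sdha by 0.12 ± 0.04. Sdhc (-0.03 ± 0.07) and Cox5b (-0.07 ± 0.04) did not pass.

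In stimulated cells, of 89 nuclear genes, 14 were lower and 1 higher with the Batf3 vector, or 15.7% and 1.12%, against 14.6% and 14.8% of all tested genes, with a median of -0.05 (all genes 0.00). The share of falls lies near the background. Of the 14, 12 also fell in non-stimulated cells, which is 85.7% of those 14 and 30% of the 40. The same overlap over all genes was not computed. With library sizes alone, 7 were lower and 4 higher, against 1561 lower and 2979 higher of all 15702 tested genes. Without control stimulated replicate 1, 2 were higher.

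Ndufc2, an accessory subunit of complex I, had the largest fall among the genes called in stimulated cells. It stood at 34.5, 32.9 and 32.7 CPM in Batf3 stimulated and 42.1, 44.2 and 47.4 CPM in control stimulated libraries, without overlap (-0.42 ± 0.06, adjusted p = 1.62e-07). Atp5d had 109.5, 109 and 107 CPM with the Batf3 vector and 127, 134 and 141 CPM with the control vector (-0.31 ± 0.04, adjusted p = 4.42e-09). Complex V gave 6 of the falls, Atp5b (0.10 ± 0.02), Atp5c1 (0.11 ± 0.04), Atp5d and the c subunit genes Atp5g1 (0.25 ± 0.04), Atp5g2 (0.28 ± 0.04) and Atp5g3 (0.20 ± 0.04). The Atp5c1 call was lost without control stimulated replicate 2 or Batf3 stimulated replicate 1 or 3 (adjusted p up to 0.0971). Uqcrq fell by 0.27 ± 0.05 and Ndufaf4 by 0.20 ± 0.05.

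The gene that was higher was Ndufb1-ps, annotated as protein-coding and named for a pseudogene of the complex I subunit Ndufb1. It stood at 85.6, 83.0 and 87.3 CPM in Batf3 stimulated and 70.7, 59.8 and 64.1 CPM in control stimulated libraries (0.39 ± 0.05, adjusted p = 7.02e-09). In non-stimulated cells it had 36.7, 40.5 and 43.1 CPM with the Batf3 vector and 44.9, 45.2 and 47.3 CPM with the control vector (-0.19 ± 0.06, adjusted p = 0.00636). The groups did not overlap in either culture and their order turned. The call without stimulation was lost without Batf3 non-stimulated replicate 1 (adjusted p = 0.0964). Part of its exons lies opposite to Cpsf2, and the strand setting of the counting is not given in the sources used here.

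**Figure D4:**
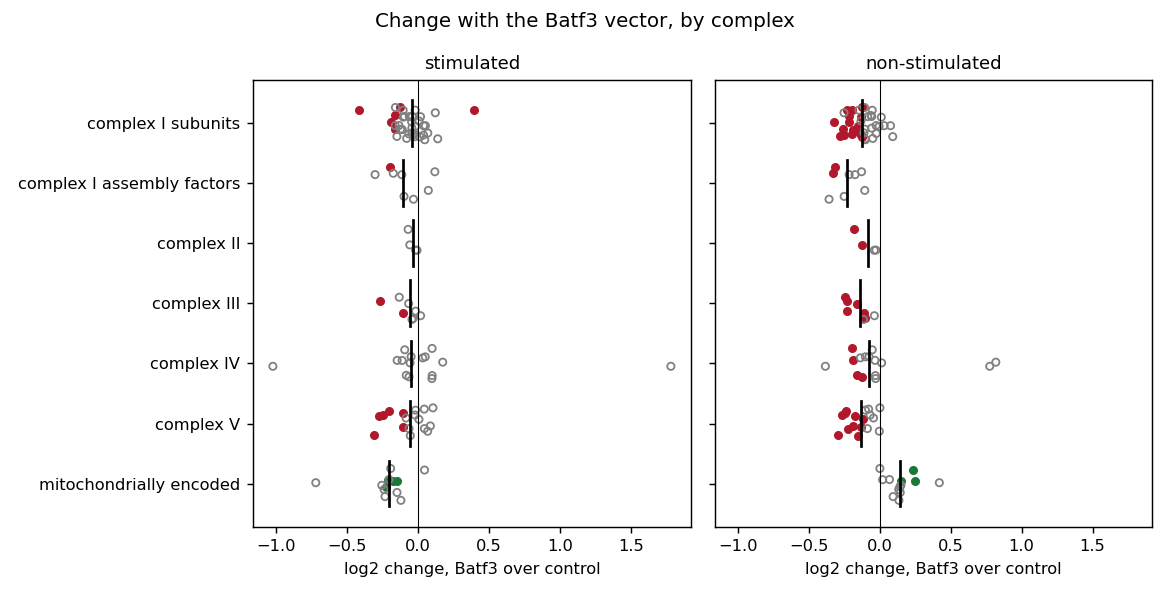
Log2 change with the Batf3 vector of each tested gene, by complex, in stimulated and non-stimulated cells. Filled points passed the test (red nuclear, green mitochondrially encoded), open points did not, and black bars are medians. The medians of the mitochondrially encoded genes are -0.20 in stimulated and 0.14 in non-stimulated cells.

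The mitochondrially encoded genes took opposite signs with the Batf3 vector in the 2 cultures. In stimulated cells 4 of 13 were lower, or 30.8%, against 14.6% of all genes, 12 of 13 log2 changes were below 0, and the median was -0.20. The 4 were mt-Nd4l (-0.18 ± 0.05), mt-Nd5 (-0.23 ± 0.05), mt-Co1 (-0.15 ± 0.05) and mt-Co3 (-0.21 ± 0.07), with adjusted p of 0.0121 for mt-Nd4l, 0.0118 for mt-Nd5, 0.0425 for mt-Co1 and 0.0406 for mt-Co3. All Batf3 libraries lay below all control libraries for 8 of the 13 and for 20 of the nuclear genes, against 19.9% of all genes. mt-Cytb was the exception (0.05 ± 0.03, adjusted p = 0.207).

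Single libraries decided much of this count. Of the 12 fits without 1 library, the call was lost in 8 for mt-Co1 (adjusted p up to 0.0727) and in 9 for mt-Co3 (up to 0.1). That of mt-Nd4l was lost without control stimulated replicate 3 or Batf3 stimulated replicate 3 (up to 0.0562). Without Batf3 stimulated replicate 3, 3 genes were lower, mt-Cytb was higher (adjusted p = 0.00162) and the median was -0.12. Without Batf3 stimulated replicate 1, 9 were lower. Without control stimulated replicate 3, 1 was lower. Leaving out Batf3 non-stimulated replicate 1 or 3, control non-stimulated replicate 1 or 2, or control stimulated replicate 1 or 2 gave 2 each time. With library sizes alone, 1 was lower and 1 higher, against 1561 lower and 2979 higher of all 15702 tested genes.

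In non-stimulated cells 3 of 13 were higher, or 23.1%, against 16.3% of all genes. All 13 log2 changes were above 0, and the median was 0.14. All Batf3 libraries lay above all control libraries for 6 of the 13, against 20.7% of all genes. The 3 called were mt-Cytb (0.24 ± 0.03, adjusted p = 2.1e-09), mt-Nd4l (0.25 ± 0.05, adjusted p = 0.000364) and mt-Co1 (0.15 ± 0.05, adjusted p = 0.0268). mt-Nd5 had 1079.8, 1160.4 and 1103 CPM in Batf3 non-stimulated and 987, 977 and 1062 CPM in control non-stimulated libraries, without overlap, and missed the threshold (0.14 ± 0.05, adjusted p = 0.0647). The count was 6 without Batf3 stimulated replicate 3, 5 without Batf3 stimulated replicate 1, 2 without control non-stimulated replicate 1 or 2 or Batf3 non-stimulated replicate 1 or 2, and 6 with library sizes alone. The mt-Co1 call was lost in the 4 fits that gave 2 (adjusted p up to 0.0804). On library sizes alone, 3604 of all 15702 tested genes were higher.

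The interaction test asked whether the Batf3 effect differs between stimulated and non-stimulated cells. Of the 13 mitochondrially encoded genes, 4 had a lower Batf3 effect after stimulation, or 30.8%, against 6.08% of all genes. All 13 differences were below 0 and the median was -0.30 (all genes 0.05), but these genes move together between libraries, so their signs are not independent. The 4 called were mt-Nd4l (-0.42 ± 0.07, adjusted p = 8.27e-05), mt-Nd5 (-0.37 ± 0.08, adjusted p = 0.0076), mt-Co1 (-0.30 ± 0.07, adjusted p = 0.0102) and mt-Cytb (-0.19 ± 0.04, adjusted p = 0.000181). Of the 89 nuclear genes, 8 had a higher effect after stimulation, or 8.99%, against 14.6% of all genes, with a median of 0.07. DESeq2 called 9 and 5. The mitochondrial count was 8 without Batf3 stimulated replicate 3 and 11 without Batf3 stimulated replicate 1. The nuclear count was 4 without control stimulated replicate 2 and 5 without control stimulated replicate 1 or 3 or Batf3 non-stimulated replicate 1.

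The 8 nuclear genes were Ndufb1-ps (0.59 ± 0.08, adjusted p = 1.85e-08), Ndufs8 (0.27 ± 0.08), Uqcrc2 (0.21 ± 0.05), Cox7b (0.29 ± 0.06), Atp5b (0.14 ± 0.03), Atp5a1 (0.10 ± 0.04), Atp5f1 (0.16 ± 0.05) and Atp5md (0.28 ± 0.09), a small membrane subunit of ATP synthase. Their adjusted p reached 0.0379 for Atp5a1. The call was lost in 10 of the 12 fits without 1 library for Atp5a1, in 7 for Atp5f1, in 6 for Atp5md and in 3 for Ndufs8. Atp5b lost it without control stimulated replicate 2 (adjusted p = 0.0626).

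The spread between libraries was set against counting error. For the mitochondrially encoded genes the median coefficient of variation (CV) was 10.7% in Batf3 stimulated, 2.25% in control stimulated, 3.996% in Batf3 non-stimulated and 5.04% in control non-stimulated cells, where counting error alone gives 0.718% to 0.786%. For the 81 nuclear genes at 10 CPM or more it was 4.32%, 4.12%, 3.903% and 2.95% in the same order, where counting error gives 3.64% to 3.86%. So the nuclear genes varied about as much as counting error, and the mitochondrially encoded ones several times more.

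More than 2 times the counting error was seen for 13, 9, 12 and 12 of the 13 mitochondrially encoded genes and for 8, 5, 9 and 9 of the 81 nuclear genes, in the same order of groups. The 2178 other genes in the level range of the mitochondrially encoded ones had median CVs of 2.79%, 2.06%, 2.50% and 2.26%, with 31.2%, 12.3%, 23.6% and 16.8% of them over that limit. mt-Atp8 varied most, with a CV of 67.8% in Batf3 stimulated and 59.9% in Batf3 non-stimulated cells. Averaged over the groups, Ndufb6, a complex I subunit near 10 to 20 CPM, had the highest nuclear CV (10.2%), followed by Ndufa3 (9.28%) and Sdhc (8.52%). The lowest were those of Atp5a1 (0.913%), Atp5b (1.25%) and Atp5j, a peripheral stalk subunit (1.46%).

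**Figure D5:**
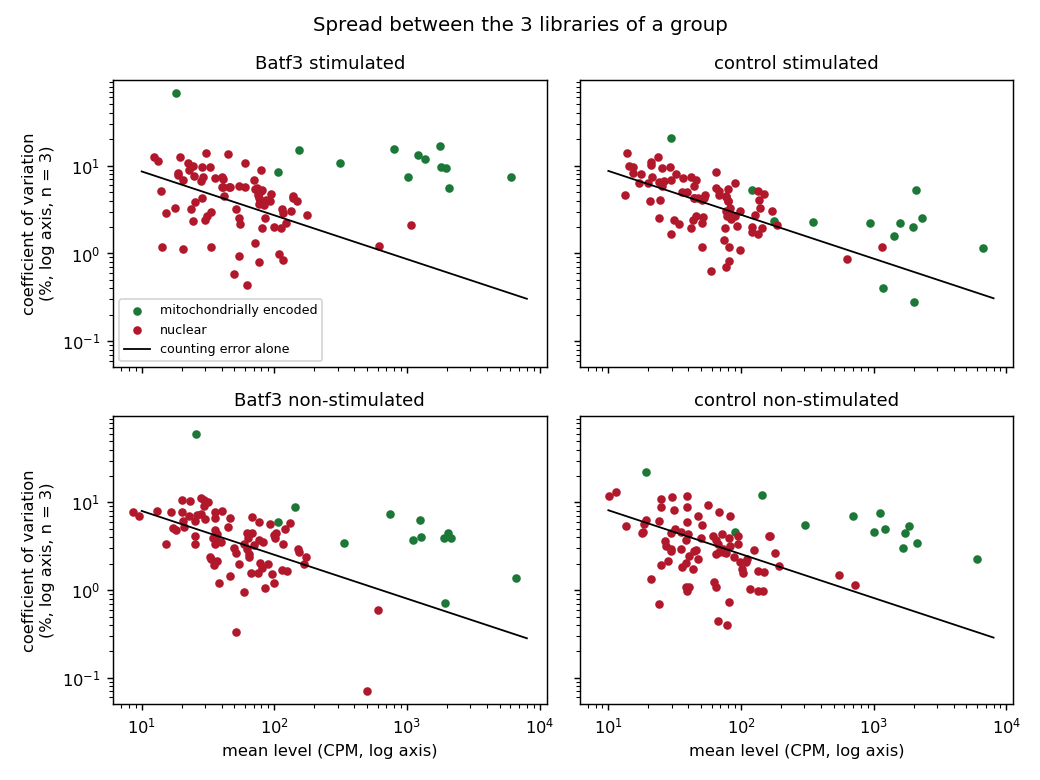
CV between the 3 libraries of a group (%, log axis) against the mean level (CPM, log axis), for nuclear genes at 10 CPM or more (red) and mitochondrially encoded genes (green). The line is the CV that counting error alone gives. Red points scatter around the line, with medians of 2.95% to 4.32%, and most green points lie above it, furthest in Batf3 stimulated cells.

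Genes that serve the chain outside the name rule were followed in 6 lists. With stimulation 41.2% of all genes rose and 41.4% fell with the Batf3 vector, and 39.6% rose and 40.7% fell with the control vector, which is the background for each list. The list of mitochondrial DNA replication, transcription and RNA handling rose most evenly with stimulation, with 22 rises and 2 falls among 26 tested genes with the control vector and 21 and 2 with the Batf3 vector. Top1mt, the mitochondrial topoisomerase, stood at 32.4, 31.1 and 31.1 CPM in Batf3 stimulated and 34.9, 36.1 and 36.6 CPM in control stimulated libraries. It had 3.44, 3.59 and 3.53 CPM in Batf3 non-stimulated and 3.65, 4.38 and 4.11 CPM in control non-stimulated libraries, the widest gap of the list (3.16 ± 0.10 with the Batf3 vector and 3.15 ± 0.10 with the control vector). Tfam, which packages mitochondrial DNA, rose by 0.73 ± 0.05 (Batf3 vector) and by 0.65 ± 0.05 (control vector), and the mitochondrial RNA polymerase Polrmt by 0.33 ± 0.06 (Batf3 vector) and by 0.49 ± 0.06 (control vector). With the Batf3 vector, 9 of the list fell and 1 rose in non-stimulated cells, against 23.0% and 16.3% of all genes, Prorp, a subunit of mitochondrial RNase P, furthest (-0.52 ± 0.10).

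Of 11 tested subunits and carriers outside the rule, 7 rose and 4 fell with stimulation with either vector. Gpd2, which feeds electrons from glycerol phosphate into coenzyme Q, had the largest rise (2.23 ± 0.05 with the Batf3 vector and 2.32 ± 0.05 with the control vector), and Etfdh, which does so from fatty acid oxidation, the largest fall (-1.71 ± 0.08 with the Batf3 vector and -2.07 ± 0.08 with the control vector). Cytochrome c, Cycs, rose by 0.86 ± 0.04 (Batf3 vector) and by 0.60 ± 0.04 (control vector). Of 35 assembly factors outside the rule, 11 rose and 12 fell with the Batf3 vector and 11 rose and 14 fell with the control vector. Ttc19, of complex III, rose by 1.60 ± 0.09 (Batf3 vector) and by 1.78 ± 0.08 (control vector), Tmem126b, of complex I, fell by 1.39 ± 0.12 (Batf3 vector) and by 1.38 ± 0.13 (control vector), and Surf1, of complex IV, fell by 1.39 ± 0.08 (Batf3 vector) and by 1.32 ± 0.08 (control vector).

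Of 12 tested regulators, 7 rose and 4 fell with the Batf3 vector and 8 rose and 3 fell with the control vector. Nrf1, the factor whose core letters stand in the Ndufaf4 window, rose by 0.39 ± 0.05 (Batf3 vector) and by 0.32 ± 0.06 (control vector). Myc, which binds E-boxes, rose by 2.02 ± 0.03 (Batf3 vector) and by 1.63 ± 0.03 (control vector), and was lower with the Batf3 vector in non-stimulated cells (-0.48 ± 0.03, adjusted p = 1.87e-22). Tfeb, a regulator of lysosome genes, fell by 1.63 ± 0.12 (Batf3 vector) and by 1.78 ± 0.13 (control vector).

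Of 13 TCA cycle genes, 9 rose and 2 fell with the Batf3 vector and 8 rose and 2 fell with the control vector. Mdh2 rose by 1.04 ± 0.03 (Batf3 vector) and by 0.80 ± 0.03 (control vector), and Dld, shared by several dehydrogenase complexes, by 0.73 ± 0.05 (Batf3 vector) and by 0.84 ± 0.05 (control vector), while Ogdh fell by 0.34 ± 0.04 (Batf3 vector) and by 0.25 ± 0.04 (control vector). With the Batf3 vector 7 of the 13 were lower in stimulated and 9 in non-stimulated cells, against 14.6% and 23.0% of all genes, Suclg2 furthest in both (-0.34 ± 0.06 in stimulated and -0.43 ± 0.06 in non-stimulated cells). Of 13 coenzyme Q synthesis genes, 10 rose and 2 fell with the Batf3 vector and 9 rose and 2 fell with the control vector, led by Coq4 (2.30 ± 0.11 with the Batf3 vector and 2.08 ± 0.10 with the control vector) and Coq10a (-1.84 ± 0.15 with the Batf3 vector and -1.91 ± 0.16 with the control vector).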

How the data were processed

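Poly(A) RNA was measured by stranded RNA-seq in 12 libraries, 3 technical replicates in each of 4 groups. The authors deposited 1 table of raw, whole-number read counts per gene, for which the submitters' processing notes name STAR 2.7, featureCounts and the build GRCm38. The sources used here do not give the annotation release, the strand setting or the handling of reads with several alignments. Reads that match the mitochondrial genes and their nuclear copies could be shared or counted for both, which would change levels.

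From the counts, filterByExpr kept 15702 genes, libraries were scaled by TMM, and 1 model of all 12 libraries (8 residual degrees of freedom) was tested with the quasi-likelihood F-test of edgeR 4.0.16 in R 4.3.3 (limma 3.58.1), with Benjamini-Hochberg adjustment over all tested genes and calls at an adjusted p under 0.05. CPM used TMM-scaled library sizes and no pseudocount. The standard error of a log2 change is its size over the square root of F. Counting error gives each library's precision: 3 counts were 0.191 to 0.229 CPM. The code was tested on simulated data. Gene identifiers were matched to GENCODE M21 (55154 matched, 181 did not).

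The members and lists were chosen with earlier results of these data known. Genes named in the text were the 13 mitochondrially encoded genes, all untested members, core subunits of known role (1 is not reported here), the called member of each class and gene of each list with the largest rise or fall in each comparison at 10 CPM or more, and those of the highest and lowest spread. Ndufb11, Ndufaf6, Atp5md, the promoter motifs and genes such as Tfam, Polrmt, Cycs and Nrf1 were named after their values were seen. Alternatives were other scalings, DESeq2 1.42.0, no filter, fits of 2 groups, a replicate block and leaving out each library.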

Additional observations from a re-analysis of the deposited data

Results flagged for a closer look

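In 12 genes the effect of the Batf3 vector differed between stimulated and non-stimulated cells by edgeR's quasi-likelihood interaction test (n = 3 libraries a group, adjusted p under 0.05). The log2 difference was positive for 8 nuclear genes: it was 0.59 for Ndufb1-ps, 0.29 for Cox7b, 0.28 for Atp5md, 0.27 for Ndufs8, 0.21 for Uqcrc2, 0.16 for Atp5f1, 0.14 for Atp5b and 0.10 for Atp5a1. It was negative for 4 mitochondrially encoded genes: -0.42 for mt-Nd4l, -0.37 for mt-Nd5, -0.30 for mt-Co1 and -0.19 for mt-Cytb.

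The copies of mitochondrial genes on chromosome 1 are not among the members but stayed in the scaling and fit of all genes. They carried counts in every library. The highest ratio of a copy's count to that of its mitochondrial gene was 1.203 for Gm10925 and mt-Atp6, 1.0043 for Gm10222 and mt-Nd4l, and 1.0022 for both Gm28438 with mt-Nd3 and Gm28437 with mt-Co3. It was 1.0011 for Gm28661 and mt-Co2, 0.531 for Gm28439 and mt-Nd4, and 0.446 for Gm29216 and mt-Co1. The 7 copies held 0.768% to 1.163% of all counts.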

How the results depend on the processing

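With library sizes alone, the share of rises among all called genes was 60.1% in place of 41.5% (Batf3 over control, non-stimulated), 65.6% in place of 50.3% (stimulated), 41.1% in place of 49.9% (stimulation, Batf3 vector) and 40.6% in place of 49.3% (stimulation, control vector). Nuclear genes were then 3 higher and 20 lower with the Batf3 vector in non-stimulated cells, 4 and 7 in stimulated cells, 24 and 49 with stimulation in Batf3 cells and 18 and 51 in control cells. Mitochondrially encoded genes were 6 higher, 1 higher and 1 lower, 0 higher and 9 lower, and 2 higher in the same comparisons. Of all 15702 tested genes, 3604 were higher and 2397 lower, 2979 and 1561, 5254 and 7525, and 5086 and 7443, in the same order. Signs turned with stimulation, in control cells, for Ndufs1 (-0.12), Atp5e (-0.18), Cox5a (-0.0047), mt-Co1 (-0.0136) and mt-Co2 (-0.0019). In Batf3 cells they turned for Cox5b (-0.20), Ndufs1 (-0.0126), Ndufa10 (-0.11), Atp5e (-0.0865), Atp5k (-0.15), Cox6b1 (-0.0807), Uqcr11 (-0.03), Cox4i1 (-0.18), Atp5l (-0.18), Cox5a (-0.15), Cox6c (-0.12), Ndufb9 (-0.18), Atp5j (-0.19), Ndufb8 (-0.20) and mt-Cytb (-0.12). Without a filter, 5 mitochondrially encoded genes were higher with the Batf3 vector in non-stimulated cells, 0 rose with stimulation in Batf3 cells, and 3 nuclear genes had a higher interaction. Fits of 2 groups gave 6 higher (non-stimulated) and 2 lower (stimulated) mitochondrially encoded genes with the Batf3 vector, and DESeq2 gave 5 nuclear and 9 mitochondrially encoded interactions. The cause was not tested.

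Leaving out each library gave, with the Batf3 vector in non-stimulated cells, 2 to 6 mitochondrially encoded genes higher and nuclear genes 0 to 1 higher and 29 to 39 lower. In stimulated cells the counts were 0 to 1 and 1 to 9 mitochondrially encoded genes, and 1 to 2 and 12 to 21 nuclear genes, higher and lower. Stimulation gave 0 to 2 and 0 to 5 mitochondrially encoded and 31 to 38 and 32 to 36 nuclear genes in Batf3 cells, and 7 to 12 rises of mitochondrially encoded and 27 to 31 and 31 to 34 nuclear genes in control cells. The interaction was lower in 4 to 11 mitochondrially encoded genes, and higher in 4 to 10 and lower in 0 to 2 nuclear genes.

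The replicate numbers do not pair the libraries: over 18 pairs of same-numbered libraries the correlation of deviations was -0.129 to 0.075. The replicate block was compared over 510 values, each 1 gene in 1 comparison, called or not. Of these, 504 kept their status, 5 lost a call and 1 gained one. With the block, 2 mitochondrially encoded genes were lower with the Batf3 vector in stimulated cells and 1 fell with stimulation in Batf3 cells. Of the alternatives chosen after seeing the data, TMM without mitochondrial genes and their copies and counts without nuclear genes that share 20% or more of their 50-base stretches with another gene moved no count of members by over 1.5 times. Depth limits Cox6b2, Cox6a2, Cox7a1 and the untested genes, which stood at low levels.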
